A study of Mus musculus with 24 samples.

Results

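The 8 genes described here are ER chaperones and genes of the unfolded protein response: Hspa5, Calr, Canx, Pdia6, Dnajb9, Dnajc3, Edem1 and Xbp1. Their members on the arrays are the probes annotated with exactly that 1 gene symbol, and they make up 8 of 6970 named genes and 18 of 15360 probes. Slide type 1 carried 9 such probes for Hspa5, Calr, Canx, Dnajb9, Dnajc3 and Edem1, and slide type 2 carried 9 for Pdia6, Xbp1, Canx, Dnajb9, Dnajc3 and Edem1. The 4 genes on both slide types were thus measured by different probes. On each slide type 1 further probe carried a member symbol together with another gene and was not counted.

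The study heated mouse embryos in culture at 43 °C for 15 min, put them back at 37 °C and took total RNA 1 h later, against control embryos held at 37 °C. There were 3 numbered treatments, each with 4 arrays on each of the 2 slide types, 24 arrays in all, and each array paired heat-shocked and control RNA in its 2 channels. For strain, genotype and embryonic age no source used here has a statement, and nothing says that the treatments came from separate litters. The p-values thus speak only for these 3 treatments. They come from limma, which takes the spread of a probe largely from all probes (prior degrees of freedom 11.2 and 8.93 on slide types 1 and 2). A small p can therefore stand beside a wide SD. Arrays with heat-shocked RNA in either channel were averaged first, so the spread between them does not enter separately. The RNA came from whole embryos, so fewer cells of a type and less RNA per cell cannot be told apart. Only ratios were available, without spot intensities, so the level of a tissue's defining markers, dim spots and saturated spots could not be checked.

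Proteins that enter the secretory pathway fold in the endoplasmic reticulum (ER) with the help of chaperones, disulfide isomerases and lectins that read their sugar chains. When unfolded proteins build up there, the sensors Ern1 (IRE1), Eif2ak3 (PERK) and Atf6 start the unfolded protein response, which raises transcription of ER chaperones and of the machinery that sends misfolded proteins back to the cytosol for degradation. A heat shock, by contrast, is known chiefly for the response of cytosolic and nuclear chaperones under the heat shock factor Hsf1.

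Each value is a difference between heat-shocked and control RNA on a log scale, not a level. Which log and which channel as numerator the authors used is not given in the sources used here. A step of 1 unit stands for 2-fold in a log of base 2, and for 2.72-fold in a natural log. Arrays were centred on their median and turned so that heat-shocked RNA in channel 1 over control in channel 2 counts as positive. The positive side is a convention, and a mirrored sign would exchange the sides of every value, rank and count given here. Genes known to be induced by heat or stress lay on the positive side, with Hspb1, the small heat shock protein Hsp27, at 2.18, 2.28 and 2.24 in treatments 1, 2 and 3 and Hsph1, an Hsp110 chaperone, at 1.90, 2.85 and 2.10. Jun, Egr1, Hsp90aa1, Bag3 and Dnajb1 had means of 1.97, 1.74, 1.18, 0.73 and 0.68, with 1.14 for Hsp90aa1 on slide type 2. Arrays with the same channel order could even correlate negatively over all probes of slide type 2 (lowest r = −0.34, treatments 1 and 2, heat-shocked RNA in channel 1). Correlation over all probes thus does not settle the direction. In treatment 2 of slide type 2 the 2 channel orders, both turned, correlated at r = −0.649 across probes, and their difference had an SD of 1.22 units over all probes, against 0.45 and 0.564 in treatments 1 and 3. The orders of treatments 1 and 3 there correlated at 0.324 and −0.0417, and those of treatments 1, 2 and 3 on slide type 1 at 0.152, 0.0675 and 0.523, so weak likeness between orders was not limited to treatment 2. Hspb1, Hsp90aa1 and Egr1 were nevertheless each above 0 on all 12 arrays of slide type 2. In the 2 orders of treatment 2, channel 1 first, Hspb1 had 2.74 and 1.82, Hsp90aa1 2.60 and 0.79, and Egr1 0.73 and 1.23. After both orders were averaged the treatments ran the same way across probes, at r = 0.70 to 0.80 on slide type 1 and 0.82 to 0.90 on slide type 2.

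The promoters of the members matter here because the ER stress response element is the sequence through which the Atf6 branch is known to act on ER chaperone genes: the factor NF-Y binds its CCAAT end and Atf6 its CCACG end. The element was searched on both strands as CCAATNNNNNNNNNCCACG in the RefSeq promoters of build GRCm38.p6, 300 bases each, from 250 before to 50 after the start, and all 8 members were matched by symbol. It was present in 5 of the 8 member promoters and in 39 of all 32851 promoters (0.119%). The members were picked as ER chaperone and unfolded protein response genes, so this contrast does not bear on the heat shock. The 250 bases before the start are printed, gene strand, 5′ to 3′, for Hspa5 (chr2:34771840-34772089, plus strand), Calr (chr8:84846932-84847181, minus strand) and Pdia6 (chr12:17266339-17266588, plus strand), which hold the element and gave some of the most negative probes, and for Edem1 (chr6:108828391-108828640, plus strand), which holds none and whose 2 probes did not pass the test. The element did not go with the calls throughout: Xbp1 and Dnajb9, with none, were called on slide type 2 (Xbp1 at −0.64), and Canx, with the element, was called on 1 of its 4 probes. Capitals mark the end motifs CCAAT and CCACG and their reverse complements ATTGG and CGTGG, wherever these occur.
Hspa5: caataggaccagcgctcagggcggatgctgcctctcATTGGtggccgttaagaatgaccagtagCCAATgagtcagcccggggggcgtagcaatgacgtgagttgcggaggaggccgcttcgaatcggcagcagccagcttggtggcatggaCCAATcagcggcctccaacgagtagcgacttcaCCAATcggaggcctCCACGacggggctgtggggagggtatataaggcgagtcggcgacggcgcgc
Calr: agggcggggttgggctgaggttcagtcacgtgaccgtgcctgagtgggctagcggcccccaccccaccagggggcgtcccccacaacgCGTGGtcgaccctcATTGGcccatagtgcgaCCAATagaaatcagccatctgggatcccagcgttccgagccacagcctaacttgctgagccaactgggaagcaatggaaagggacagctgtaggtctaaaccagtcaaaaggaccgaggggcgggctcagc
Pdia6: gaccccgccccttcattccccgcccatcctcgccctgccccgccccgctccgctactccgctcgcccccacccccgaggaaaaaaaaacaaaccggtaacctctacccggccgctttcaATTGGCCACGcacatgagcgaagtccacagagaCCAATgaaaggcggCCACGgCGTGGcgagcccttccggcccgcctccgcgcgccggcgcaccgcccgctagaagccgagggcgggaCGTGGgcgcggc
Edem1: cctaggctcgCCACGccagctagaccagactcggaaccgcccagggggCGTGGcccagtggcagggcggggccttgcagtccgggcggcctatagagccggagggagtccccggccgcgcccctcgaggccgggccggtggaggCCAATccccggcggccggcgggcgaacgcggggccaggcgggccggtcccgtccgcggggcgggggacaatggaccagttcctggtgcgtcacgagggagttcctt
In Hspa5 the element lay 65 to 47 bases before the start and in Pdia6 98 to 80 bases before it. In Calr it ran on the other strand, 162 to 144 bases before the start. The same 19 bases of Canx (145 to 127 bases before the start) and Dnajc3 (105 to 87 before) are given alone, since their flanks add nothing to the match.
Canx element: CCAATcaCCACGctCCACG
Dnajc3 element: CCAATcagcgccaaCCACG
The promoters of Xbp1, Dnajb9 and Edem1 held no match to these letters in this window. The end motifs alone were common: CCAAT was found in 7 of the 8 members and in 37.4% of all promoters, and CCACG in 7 of the 8 and in 32.8%. The core ACGTG, which can overlap CCACG, was found in 5 of the 8 and in 19.6%. A heat shock element of 3 units, searched as GAANNTTCNNGAA on both strands, matched none of the 8 members and 0.603% of all promoters. These matches describe letters and do not show binding.

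**Figure D1:**
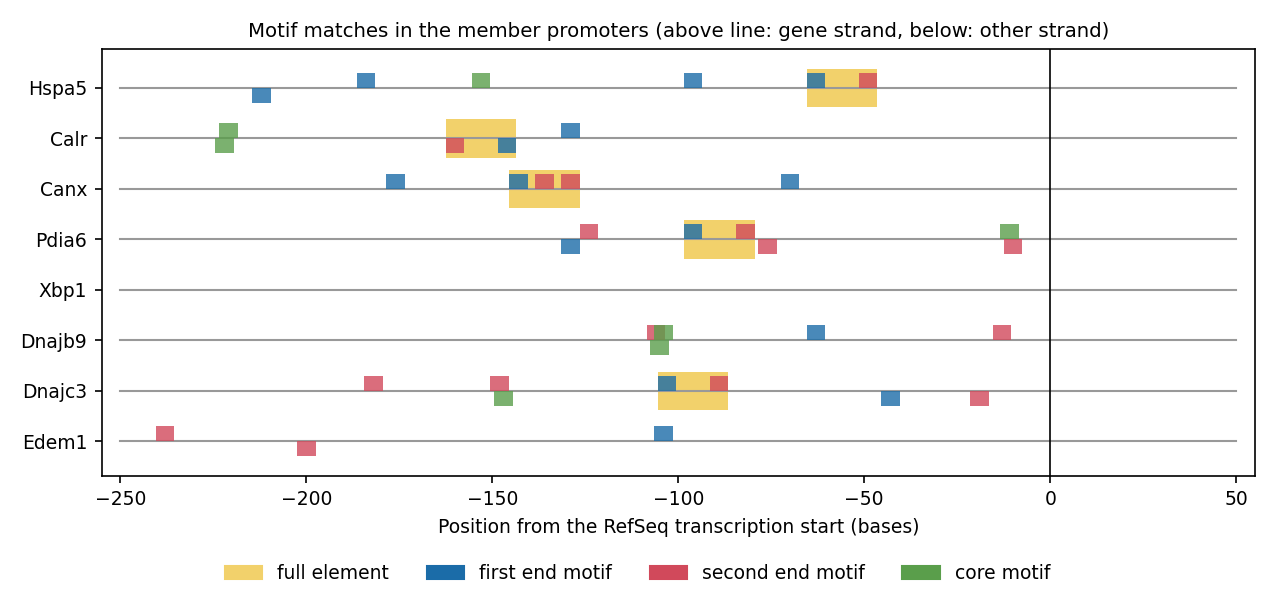
Motif matches along the promoters of the 8 members (rows), by position in bases from the RefSeq start (horizontal axis, 0 is the start). Yellow boxes are the full ER stress response element, blue and red its first and second end motif and green the core motif, above the line on the gene strand and below it on the other. The full element appears in Hspa5, Calr, Canx, Pdia6 and Dnajc3 and not in Xbp1, Dnajb9 or Edem1.

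The question was whether the transcripts of these genes changed within 1 h of the heat shock. Wherever a member passed the test it lay on the side opposite to the heat shock genes. Among the 9 member probes of slide type 1, 4 were negative, 0 positive and 5 did not pass, by limma with Benjamini-Hochberg adjustment over all probes at 0.05. Over all 7680 probes of that slide type 5.09% were called negative and 11% positive. Of the 9 on slide type 2, 7 were negative, 0 positive and 2 did not pass, where 24.4% of all 7680 probes were called negative and 28.9% positive. At an unadjusted limma p under 0.05 there were 5 negative member probes on slide type 1 and 7 on slide type 2, where 11.3% and 27.6% of all probes were negative. None was positive at that threshold, beside 14.5% and 33.5% of all probes. The median member probe was −0.19 on slide type 1 and −0.34 on slide type 2, beside −0.015 and 0.032 over all probes. Without centring, the median of all probes moved to 0.29 and 0.11, and the member medians were 0.11 and −0.26. The side of the member median on slide type 1 thus depends on centring. Uncentred, the negative member calls on slide types 1 and 2 were 2 and 3, beside 14 and 135 of all 7680 probes. No member was positive, beside 1210 and 422 of all probes.

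**Figure D2:**
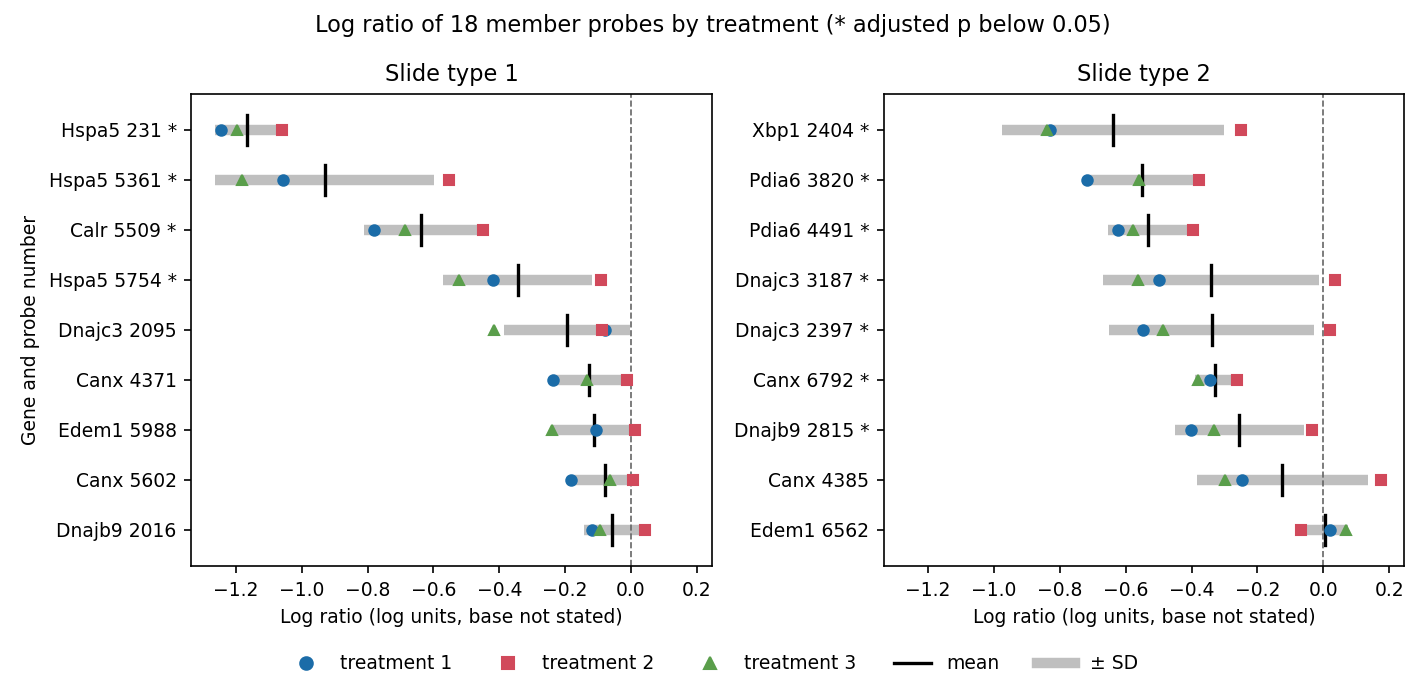
Log ratio of the 18 member probes (horizontal axis, log units of unstated base, negative to the left) on slide type 1 (left) and slide type 2 (right), in the centred values. Points are the 3 treatments, black ticks their means and grey bars 1 SD to each side, and an asterisk marks a limma adjusted p below 0.05. The probes of Hspa5, Calr, Xbp1 and Pdia6 lie farthest to the left, and treatment 2 (squares) is the rightmost point in 8 of 9 probes on each slide type. With the treatment 2 arrays of slide type 2 that had heat-shocked RNA in channel 1 turned in sign, that count is 5 of 9. Treatment 2 is then the leftmost point for Pdia6 and Canx there. Without centring, the 5 probes of slide type 1 with no asterisk move to the other side of 0.

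Hspa5, also called BiP or GRP78, is the Hsp70 chaperone of the ER lumen and holds the 3 stress sensors inactive while it is bound to them. Its probe 231 had log ratios of −1.24, −1.06 and −1.19 in treatments 1, 2 and 3. All 12 arrays lay below 0, from −1.50 to −0.73, so the treatments were close together and far from 0. The mean of −1.17 ± 0.10 (SD, n = 3 treatments, limma adjusted p = 2.6e-08) was the most negative of all 7680 probes on slide type 1. Probe 5361 had −1.06, −0.55 and −1.18, with a mean of −0.93 ± 0.33 (limma adjusted p = 8.46e-06), rank 3 from the negative end. Probe 5754 had −0.42, −0.09 and −0.52, with a mean of −0.34 ± 0.23 (limma adjusted p = 0.0082), and 10 of its 12 arrays were below 0. All 3 probes were thus negative in every treatment, but not by the same amount. Probe 231 lay below probe 5754 by 0.67 to 0.97 units and probe 5361 below it by 0.46 to 0.66 units across treatments. An exact sign-flip test over the 3 treatments gives p = 0.25 for each pair, two-sided, the smallest that 3 treatments allow. The calls of probes 231 and 5361 held under all 11 alternatives tried, whereas that of probe 5754 ended without centring (−0.04), with heat-shocked RNA in channel 1 alone (−0.18) and without treatment 3 (−0.25).

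Dnajc3 (p58IPK) and Dnajb9 (ERdj4) are J-domain proteins of the ER that stimulate the ATPase of Hspa5. Both probes of Dnajc3 on slide type 2 were called. Probe 2397 had −0.55, 0.02 and −0.49 in treatments 1, 2 and 3 (mean −0.34 ± 0.31, limma adjusted p = 0.0137), and probe 3187 had −0.50, 0.04 and −0.56 (mean −0.34 ± 0.33, limma adjusted p = 0.0152). The probes differed by 0.003 ± 0.06 units, so they had the same pattern, with treatments 1 and 3 near −0.5 units and treatment 2 at about 0. Probe 2095 of slide type 1 had −0.08, −0.09 and −0.42, a mean of −0.19 ± 0.19 that did not pass (limma adjusted p = 0.11), and there treatment 3 was the one that stood apart. Dnajb9 had −0.40, −0.03 and −0.33 on slide type 2 (probe 2815, mean −0.26 ± 0.20, limma adjusted p = 0.0154). That call ended when treatment 1 or treatment 3 was left out (limma adjusted p = 0.0954 and 0.0548) and with centring on probes of 1 symbol (limma adjusted p = 0.0589). Its probe 2016 of slide type 1 had −0.12, 0.04 and −0.09 and did not pass (mean −0.06 ± 0.09, limma adjusted p = 0.687). The calls of Dnajc3 and Dnajb9 were also lost without centring and in each channel order alone. Few probes of slide type 2 were called negative in 1 order alone, 13 of 7680 in channel 1 and 236 in channel 2. This applies also to the single-order results of Canx, Pdia6 and Xbp1 on slide type 2 below.

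Calr (calreticulin, soluble) and Canx (calnexin, anchored in the membrane) are the lectin chaperones that hold glycoproteins carrying a single glucose until they fold. Calr had −0.78, −0.45 and −0.69 in treatments 1, 2 and 3 on its 1 probe, 5509 of slide type 1. Its 12 arrays ran from −0.89 to −0.29, all below 0. The mean was −0.64 ± 0.17 (limma adjusted p = 2.02e-05), rank 25 from the negative end of 7680 probes, and without centring it was −0.33 and did not pass (limma adjusted p = 0.12). Canx gave smaller values that were called on 1 of its 4 probes. Probe 6792 of slide type 2 had −0.35, −0.26 and −0.38 (mean −0.33 ± 0.06, limma adjusted p = 0.00129). This call ended without centring (limma adjusted p = 0.258), with heat-shocked RNA in channel 1 alone (−0.08, limma adjusted p = 0.98) and in channel 2 alone (−0.57, limma adjusted p = 0.0859). The −0.26 of treatment 2 averages 0.53 and −1.05 in the 2 channel orders, a spread that the SD of 0.06 does not hold. Probe 4385 of the same slide type had −0.25, 0.17 and −0.30 (mean −0.12 ± 0.26, limma adjusted p = 0.229) and lay above probe 6792 in all 3 treatments, by 0.08 to 0.44 units. It passed when treatment 2 was left out, at −0.27 (limma adjusted p = 0.000227). Probes 4371 and 5602 of slide type 1 had means of −0.13 ± 0.11 and −0.08 ± 0.10 (limma adjusted p = 0.263 and 0.526), and both turned to the positive side without centring.

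Pdia6 is a protein disulfide isomerase that makes and rearranges disulfide bonds in client proteins. Its probe 3820 had −0.72, −0.38 and −0.56 in treatments 1, 2 and 3 (mean −0.55 ± 0.17, limma adjusted p = 0.000148). Probe 4491 had −0.62, −0.39 and −0.58 (mean −0.53 ± 0.12, limma adjusted p = 9.56e-05). The 2 probes differed by −0.02 ± 0.06 units and ranked 97 and 110 from the negative end. Behind the value of treatment 2 lay opposite values in the 2 channel orders. With heat-shocked RNA in channel 1 alone neither call held (−0.09 and −0.22, limma adjusted p = 0.977 and 0.903), against −1.01 and −0.85 in channel 2 alone.

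Edem1 is an ER lectin that hands misfolded glycoproteins to degradation, and its gene is a textbook target of Xbp1. Neither of its probes passed. Probe 5988 of slide type 1 had −0.11, 0.01 and −0.24 (mean −0.11 ± 0.13, limma adjusted p = 0.358), and probe 6562 of slide type 2 had 0.02, −0.07 and 0.07 (mean 0.006 ± 0.07, limma adjusted p = 0.931). The second is the 1 member probe with a mean above 0, and the spread of its treatments spans 0.

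Xbp1 encodes a transcription factor whose mRNA is cut and spliced by Ern1 to make its active form. Its 1 probe, 2404 on slide type 2, had −0.83, −0.25 and −0.84 in treatments 1, 2 and 3. All 12 arrays were below 0, from −1.07 to −0.02, and the arrays nearest 0 were those of treatment 2 with heat-shocked RNA in channel 1, at −0.02 and −0.11. The mean of −0.64 ± 0.34 (limma adjusted p = 0.000633) ranked 50 of 7680 from the negative end. The 2 channel orders gave −0.62 (heat-shocked RNA in channel 1) and −0.66 (channel 2), each on its own not past the test (limma adjusted p = 0.171 and 0.0537). Whether the probe tells spliced from unspliced mRNA is not known here, since no probe sequence was used.

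With both channel orders averaged, treatment 2 was the least negative for most members. It held the highest value in 8 of 9 member probes on slide type 1 (the exception is Dnajc3) and in 8 of 9 on slide type 2 (the exception is Edem1), a count made after the values were seen. Over all probes treatment 2 was highest in 37.9% on slide type 1 and 18.5% on slide type 2, and among the probes called negative in 31.2% and 17.8%. On slide type 2 this count rests on arrays whose 2 channel orders correlated negatively across probes. Hspb1, Hsp90aa1 and Egr1 were above 0 on all of these arrays, so turning some of them also puts these genes below 0 there. With the treatment 2 arrays of channel 1 turned, treatment 2 was highest in 5 of 9 member probes, beside 45.4% of all probes, and lowest in 4. The 4 were Pdia6 probes 3820 (−0.97) and 4491 (−0.86) and Canx probes 6792 (−0.79) and 4385 (−0.32). The median member was −0.24, −0.09 and −0.42 in treatments 1, 2 and 3 on slide type 1 and −0.50, −0.07 and −0.49 on slide type 2. The heat shock genes did not share 1 order of treatments: Hsp90aa1, the inducible cytosolic Hsp90, was highest in treatment 2, at 1.57 against 0.89 and 1.08 on slide type 1, while the immediate early gene Egr1 was lowest there, at 0.98 against 2.42 and 1.83. Over the 12 arrays of slide type 1, the genes whose values ran most like those of the Hspa5 probes were Ywhah (r = 0.96), R3hdm1 (0.93) and Scfd1 (0.93). Those most like the mean of all member probes on slide type 2 were Hsp90aa1 (0.97), Dnaja1 (0.94) and Rsrp1 (0.90). These r are descriptions, since the arrays share 3 treatments and a channel component, and they do not mean a like side. Scfd1 (mean 1.26), Hsp90aa1 (1.14) and Dnaja1 (0.43) were called positive and Rsrp1 (−0.68) negative. Ywhah (−0.19) and R3hdm1 (0.06) did not pass. The 18 probes are not independent, since the slide types share the treatments and several probes share a gene.

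The values also differed with the channel that held the heat-shocked RNA. All 9 member probes of slide type 1 were more negative with it in channel 2, as were 60.2% of all probes, with member medians of −0.11 in channel 1 and −0.33 in channel 2. The difference passed the test for 2 of the 9, by limma over 3 differences per probe, where 22.2% of all probes passed. Hspa5 probe 5361 had −0.65 in channel 1 and −1.21 in channel 2 (difference 0.55 ± 0.07, limma adjusted p = 0.0113). Canx probe 4371 had 0.08 and −0.33 (difference 0.41 ± 0.16, limma adjusted p = 0.0381), so its sides were opposite. The other 7 did not pass, among them Hspa5 probe 231 (−1.05 and −1.28, limma adjusted p = 0.301) and Calr (−0.57 and −0.71, limma adjusted p = 0.415).

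Slide type 2 had 6 of 9 member probes more negative with heat-shocked RNA in channel 2, beside 55% of all probes. The difference was called by limma for 0 of the 9 and for 0.013% of all probes. At an unadjusted p under 0.05 it was 1 of the 9, Pdia6 probe 3820, beside 10.4% of all probes. The orders lay farthest apart in treatment 2. Pdia6 probe 3820 had 0.70 and 0.48 on the 2 arrays of treatment 2 that had heat-shocked RNA in channel 1, against −1.34 and −1.35 on the 2 of the other order. Pdia6 probe 4491 had 0.46 and −1.25 in these orders of treatment 2, and Canx probe 6792 had 0.53 and −1.05. Dnajc3, Dnajb9 and Edem1 differed there the other way, with −0.22 and 0.29 for Dnajc3 probe 3187, −0.31 and 0.24 for Dnajb9, and −0.36 and 0.22 for Edem1. In treatments 1 and 3 both orders of Pdia6 were negative, from −0.92 to −0.20 on probe 3820. Without treatment 2, 8 of the 9 member probes of slide type 2 were called negative, beside 24.5% of all probes. With the arrays of treatment 2 and heat-shocked RNA in channel 1 turned in sign, an alternative added after the values were seen, limma called 0 probes on slide type 2 and 0 members. This turning also puts Hspb1, Hsp90aa1 and Egr1 below 0 on those arrays, so the counts do not show which sign is right. The member means then ran from −0.75 (Pdia6 probe 3820) to 0.13 (Edem1), with none on the other side than before.

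**Figure D3:**
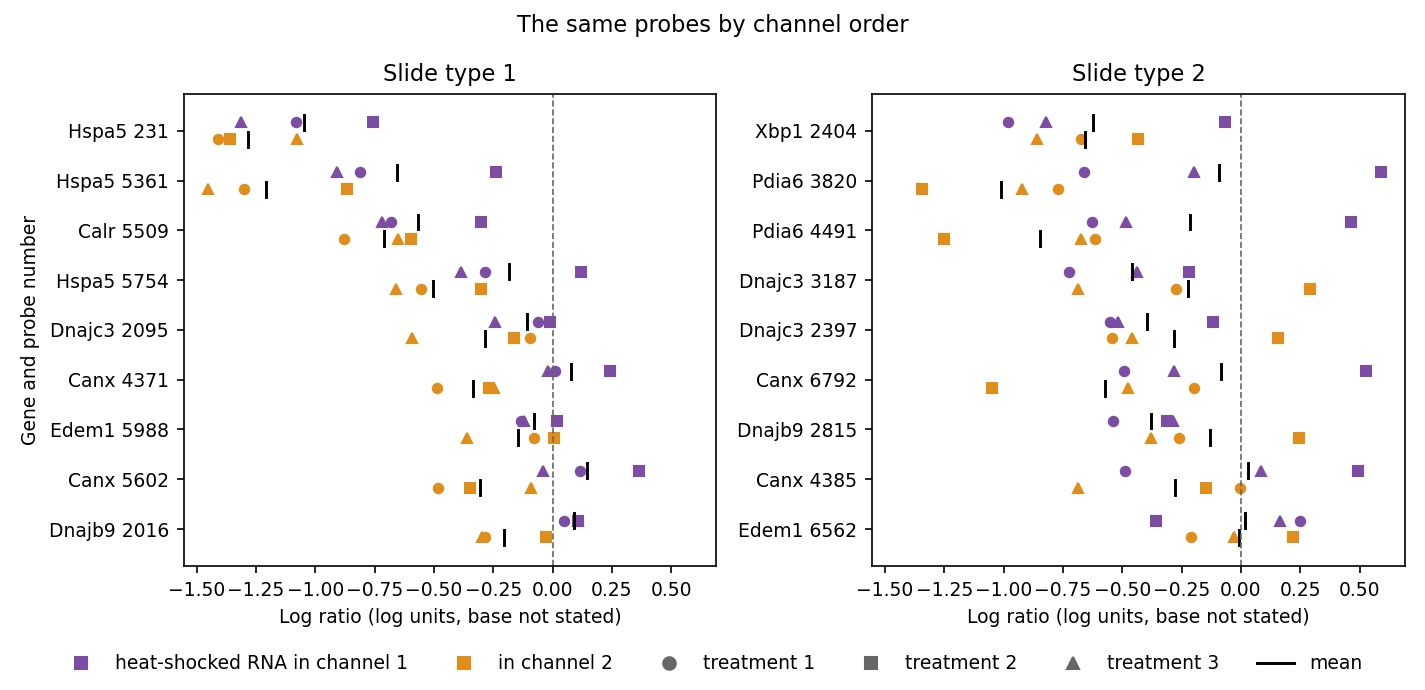
The same 18 probes with each treatment split by channel order: purple, heat-shocked RNA in channel 1; orange, in channel 2, both turned to the same side. The horizontal axis is the log ratio in log units of unstated base, each point the mean of 2 arrays and each tick the mean of 3 treatments. The orange ticks of slide type 1 lie to the left of the purple ones for all 9 probes. The squares of treatment 2 on slide type 2 lie far apart for Pdia6 and Canx, at 0.59 and −1.34 for Pdia6 probe 3820.

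The rest of the pathway was described through 4 lists of genes, with 1 value per gene (the mean of its probes) and limma adjustment over all genes of a slide type. Of 31 measured genes on slide type 1, 5 were called negative and 3 positive, where 5.65% of all genes were negative and 5.73% positive. Of 44 on slide type 2, 17 were negative and 8 positive, beside 31.9% and 18.5% of all genes. At an unadjusted limma p under 0.05, 15.8% of all genes were negative and 8.23% positive on slide type 1, and 35.9% and 21.8% on slide type 2. These splits move with centring, as do those of all genes. Without it they were 0 and 4 on slide type 1, where 5 of all 3838 genes were negative and 263 positive. On slide type 2 they were 0 and 2, where 65 of all 4075 genes were negative and 76 positive. With centring on probes of 1 symbol they were 3 and 4, and 11 and 10. All genes then had 119 negative and 254 positive on slide type 1, and 861 and 1249 on slide type 2.

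ER folding, the list of luminal chaperones, isomerases and their helpers, held 3 negative and 0 positive calls among 9 genes on slide type 1 (also 0 positive at an unadjusted limma p under 0.05). Manf, a secreted ER stress protein, had −0.41 ± 0.25 (limma adjusted p = 0.0121), and Hsp90b1 (GRP94), the Hsp90 of the ER, −0.32 ± 0.26 (limma adjusted p = 0.0419). Hsp90b1 had −0.49, −0.02 and −0.46 in treatments 1, 2 and 3. Treatment 2 was nearest 0 for Hsp90b1, Manf and Pdia4, but not throughout the list. The isomerase Pdia4 had −0.23 ± 0.13 (limma adjusted p = 0.0472). Rcn2, a calcium-binding ER protein, had −0.13 ± 0.17 and did not pass. The list median was −0.07, beside −0.04 over all genes, and 0.24 without centring. Slide type 2 held 7 negative and 2 positive calls among 13 genes of the list, with a median of −0.21 beside −0.05 over all genes (−0.12 without centring). The reductase Dnajc10 (ERdj5) had −0.34 ± 0.01, and the thioredoxin relatives Erp29 and Txndc12 had −0.28 ± 0.17 and −0.26 ± 0.09. On the other side lay Serpinh1 (Hsp47), a collagen chaperone known to be heat-induced, at 0.31 ± 0.23. So did Pdia5 at 0.14 ± 0.05 (limma adjusted p = 0.0477), from probes at 0.138 and 0.145. Treatment 2 was the most negative for Dnajc10, Erp29 (−0.34, −0.41 and −0.09) and Txndc12 (−0.21, −0.36 and −0.21), and nearest 0 for Dnajb11 (−0.28, −0.16 and −0.27). Of the other genes called negative there, Fkbp9 was also most negative in treatment 2, which lay in the middle for Pdia3 and P4hb. Without centring none of the calls of this list held.

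The calnexin cycle list holds the glucosidases that trim the sugar of glycoproteins and the cargo lectins that carry them out of the ER. It gave 1 negative call among 5 genes of slide type 1 and 3 negative calls among 4 genes of slide type 2, with 0 positive on either, also at an unadjusted limma p under 0.05. Mogs, glucosidase I, had −0.40 ± 0.16 on slide type 1 (limma adjusted p = 0.00438). Ganab, the catalytic subunit of glucosidase II, had −0.27 ± 0.05 on slide type 2 (limma adjusted p = 0.00136) and −0.09 ± 0.06 on slide type 1 (limma adjusted p = 0.403). Of the cargo receptors, Mcfd2 had −0.20 ± 0.19 and Lman2 −0.15 ± 0.04 on slide type 2, both called. Lman1 there (−0.03 ± 0.03), and Lman2 (−0.09 ± 0.17) and the folding sensor Uggt1 (−0.02 ± 0.03) on slide type 1, did not pass. The list medians were −0.09 and −0.18, and 0.22 and −0.09 without centring, where none of the calls held.

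Among regulators of the unfolded protein response few genes passed. Of 7 genes on slide type 1, 1 was negative (Tmbim6, an ER membrane protein, −0.30 ± 0.08) and 1 positive (Ppp1r15b, a subunit of the phosphatase that acts on eIF2α, 0.25 ± 0.07). Of 12 on slide type 2, 2 were negative, Atf4 at −0.35 ± 0.15 and the NF-Y subunit Nfyb at −0.25 ± 0.02, and 0 positive (1 at an unadjusted limma p under 0.05). Atf4, the transcription factor of the Eif2ak3 branch, had −0.36, −0.50 and −0.19, so treatment 2 was its most negative and not its least. The sensors Atf6 (−0.0001 ± 0.16 on slide type 1) and Ern1 (0.02 ± 0.06 and 0.10 ± 0.06 on slide types 1 and 2) did not pass. Nor did Ppp1r15a (0.11 ± 0.12) and the NF-Y subunit Nfyc (−0.04 ± 0.004) on slide type 1, or the protease Mbtps2 (0.13 ± 0.06) and the kinase Eif2ak4 (−0.11 ± 0.09) on slide type 2. The medians of this list were 0.004 and −0.04, and 0.31 and 0.04 without centring. There Ppp1r15b kept its call and Tmbim6, Atf4 and Nfyb lost theirs.

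ERAD, the machinery that takes misfolded proteins out of the ER for degradation, was split between the sides in the centred values. Of 10 genes on slide type 1, 0 were negative (0 also at an unadjusted limma p under 0.05) and 2 positive. Vcp, the ATPase that pulls proteins out of the membrane, had 0.70, 0.95 and 1.25 in treatments 1, 2 and 3 (mean 0.97 ± 0.28, limma adjusted p = 0.000127), and its cofactor Ufd1 had 0.36 ± 0.14. Nploc4, the partner of Ufd1, had 0.20 ± 0.08 (limma adjusted p = 0.0518) and Edem2, a relative of Edem1, −0.14 ± 0.19 (limma adjusted p = 0.302). The list gave 5 negative and 6 positive calls among 15 genes of slide type 2. The ubiquitin-conjugating enzyme Ube2g2 had 0.44 ± 0.15 and the Vcp recruiter Faf2 0.42 ± 0.07, from 2 probes at 0.09 and 0.74. The ubiquitin ligase March6 had −0.29 ± 0.08. Vcp itself had −0.33 ± 0.09 there (limma adjusted p = 0.000324), the opposite side to its probe on slide type 1, and the files do not say which probe reads the transcript as annotated. The list medians were −0.04 and −0.02, near those of all genes, and 0.27 and 0.07 without centring. Without centring the list had 0 negative calls on either slide type, and 3 and 2 positive ones. Of all genes, 5 and 65 were then negative and 263 and 76 positive. Vcp of slide type 1, Ufd1, Faf2 and Ube2g2 then kept their calls and Nploc4 passed. Vcp of slide type 2 and March6 lost theirs (limma adjusted p = 0.338 and 0.444).

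**Figure D4:**
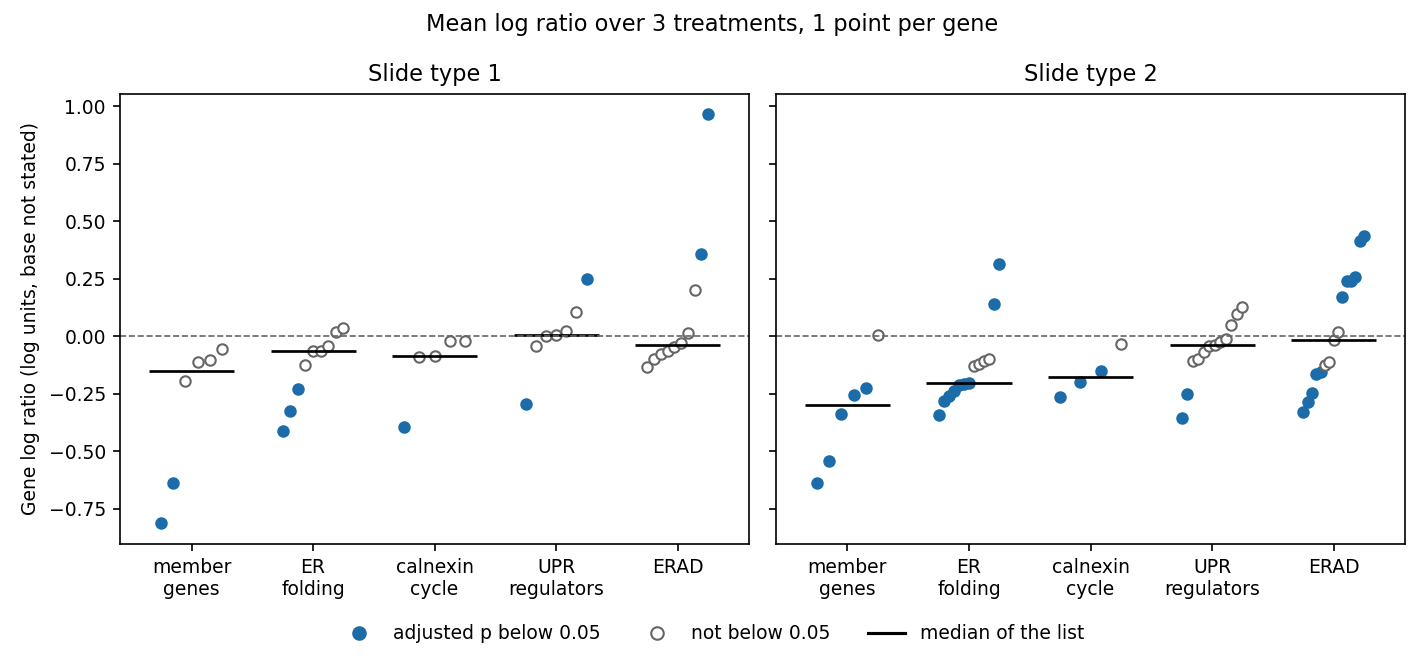
Gene log ratios (vertical axis, mean over 3 treatments, log units of unstated base) of the member genes and the 4 pathway lists on slide types 1 and 2, in the centred values. Each point is a gene, filled where the limma adjusted p was below 0.05, and bars are list medians. Member genes reach the lowest values on both slide types, ER folding and calnexin cycle genes called on slide type 1 are all below 0, and ERAD genes lie on both sides, with Vcp at 0.97. Without centring the medians of the 4 pathway lists on slide type 1 lie above 0.

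Markers of cell types that an embryo can hold were set beside the members. Over all genes 5.65% were called negative and 5.73% positive on slide type 1, and 31.9% and 18.5% on slide type 2. At an unadjusted limma p under 0.05, 15.8% and 35.9% of all genes were negative on slide types 1 and 2. Matrix-secreting mesenchyme, whose cells rely on ER chaperones to make collagen, was negative in 5 of 8 genes on slide type 2, with Col1a1 at −0.60 ± 0.29 and Col1a2 at −0.35 ± 0.14 (list median −0.20, range −0.60 to 0.09), and in 0 of 2 on slide type 1. Across treatments 1, 2 and 3 Col1a1 had −0.77, −0.76 and −0.26, and Lum, a matrix proteoglycan, −0.25, −0.02 and −0.22. Lum alone of the list on slide type 2 had its highest value in treatment 2. Treatment 2 was the lowest for Col1a2 (−0.32, −0.51 and −0.22), Col3a1 (−0.26, −0.55 and −0.25), Sparc, Fn1, Dcn and Col5a2. The part of these genes in the result was not tested. Of the other lists, yolk sac endoderm had 0 of 8 genes called on slide type 1 (1 at an unadjusted limma p under 0.05) and 1 of 2 on slide type 2 (Dab2, −0.17 ± 0.15). Erythroid genes had 0 of 1 and 0 of 4 called (0 and 1 unadjusted), trophoblast 0 of 5 and 1 of 1 (Krt18, −0.19 ± 0.14, 1 unadjusted on slide type 1) and neural 1 of 2 on slide type 1 (Tubb3, −0.21 ± 0.04) with none measured on slide type 2. No heart muscle marker was measured. Without centring, Col1a1 alone of these markers kept its call, where 5 and 65 of all genes were negative on slide types 1 and 2.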

How the data were processed

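Values of 24 arrays with 2 channels were used as deposited: per the tables' own values they are signed log ratios, treated as a score of unstated unit, and how the authors corrected background and normalized is not given in the sources used here. GEO's labels gave the channel order. Arrays were centred on the median of all probes, turned, averaged over a slide code suffix of unstated meaning and then over both channel orders. The 3 treatments were the replicates. Probes with several symbols or none (2931 on slide type 1, 2745 on slide type 2) entered the fit but named no gene. The test was limma 3.58.1 under R 4.3.3 (lmFit, eBayes, intercept), with Benjamini-Hochberg adjustment per slide type over all its probes or all its genes, and the code was tested on simulated data. Every member probe is named, with up to 4 genes of each list by smallest p. Further ones were chosen after their values were seen (Dnajb11, Fkbp9, Pdia3, P4hb, Pdia5, Ern1, Atf6, the markers). Members and lists were chosen with earlier results of these data known. Alternatives were no or other centring, 1 channel order, 1 suffix, a replicate block, a robust prior, medians over probes, each treatment left out and, added later, some arrays turned. Promoters are from RefSeq (GRCm38.p6). Figures used matplotlib 3.10.9.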

Additional observations from a re-analysis of the deposited data

Results flagged for a closer look

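The 2 channel orders differed past the limma threshold for 2 member probes of slide type 1. For Hspa5 probe 5361 the log ratio with heat-shocked RNA in channel 1 exceeded that with it in channel 2 by 0.55 (limma adjusted p = 0.0113), with both orders negative. For Canx probe 4371 the difference was 0.41 (limma adjusted p = 0.0381), with the orders on opposite sides of 0. A test for a single array apart from the other 5 of its slide type and channel order found 0 in 36 groups of 6 arrays, where chance gives about 1 group in 20. Each group holds 3 treatments with 2 arrays each, so a treatment that stands apart brings 2 like values and escapes this test. Pdia6 probe 3820 with heat-shocked RNA in channel 1 is such a case, at 0.70 and 0.48 in treatment 2 and from −0.88 to −0.13 in the others.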

How the results depend on the processing

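The number of treatments, 3, limits the precision, no spot intensities were available, and the share of negative calls rests on centring. Without centring, 557 probes were called on slide type 2 (4096 with it) and the split was 14 negative to 1210 positive on slide type 1 (391 to 844) and 135 to 422 on slide type 2 (1877 to 2219). With centring on probes of 1 symbol it was 221 to 996 and 1205 to 3283. Member calls without centring fell to 2 and 3 (4 and 7 with it), pathway calls to 4 and 2 (8 and 25), and calls of the order difference were 4081 and 0 (1705 and 1). Heat-shocked RNA in channel 1 alone gave 2402 and 226 probes, and 0 members and 2 pathway genes on slide type 2. Only 13 of these 226 probes were negative. Channel 2 alone gave 776 and 700 probes, 2 members on slide type 2, and 3 and 0 pathway genes. Of the 700 probes, 236 were negative. Arrays with the suffix gave 797 probes, 923 order differences and 3 pathway genes on slide type 1, and 0 order differences on slide type 2, where arrays without it gave 2 and centring on probes of 1 symbol 0. With the treatment 2 arrays turned, probes, members, pathway genes and order differences on slide type 2 were all 0. That setting also puts Hspb1, Hsp90aa1 and Egr1 below 0 on the turned arrays.

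Leaving out 1 treatment gave 2315 to 4920 probes on slide type 2, 541 to 2656 order differences on slide type 1 and 0 to 1362 on slide type 2, and 3 to 8 pathway genes on slide type 1. Members ranged from 3 to 4 and 6 to 8. A replicate block over 12 arrays gave 1683 and 4308 probes and 4 and 7 members, changing no member call (consensus correlation 0.067 and −0.215). Sides turned for Canx probe 4371 (0.18 without centring, 0.078 in channel 1 alone), Canx 5602 (0.22 and 0.15), Dnajb9 2016 (0.25 and 0.089), Canx 4385 (0.031 in channel 1 alone), Dnajc3 2095 (0.11) and Edem1 5988 (0.19), both without centring, and Edem1 6562 (−0.0065 in channel 2 alone, −0.0027 without the suffix, and −0.025 to 0.044 with 1 treatment left out). None of these 7 was called. The causes were not tested.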

Other observations

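Genes outside the members whose promoter holds the full ER stress response element were picked after the values were seen and are given as a description. On slide type 1, 5 such genes were measured, where 5.65% of all genes were negative and 5.73% positive. Hsp90b1 was negative (−0.32 ± 0.26) and Acacb, an acetyl-CoA carboxylase, positive (0.27 ± 0.19). The 3 that did not pass were Hnrnpa3 (−0.03 ± 0.13), Xlr3c (0.01 ± 0.24) and Calr4 (0.05 ± 0.10). On slide type 2, 6 were measured, 4 negative and 2 positive, where 31.9% of all genes were negative and 18.5% positive. The negative ones were Pan2 (−0.28 ± 0.10), Hnrnpa3 (−0.25 ± 0.07), Zfp57 (−0.20 ± 0.09) and the ERAD ubiquitin ligase Syvn1 (−0.17 ± 0.06), and the positive ones Tdrd9 (0.16 ± 0.10) and Calr4, a calreticulin relative (0.29 ± 0.19). Their medians were 0.014 and −0.18, beside −0.04 and −0.05 over all genes.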
